A study of Drosophila melanogaster with 4 samples.

Results

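The heat shock protein genes considered here are 10 *Drosophila* genes, namely Hsp22, Hsp23, Hsp26, Hsp27, Hsp68, Hsp83, Hsc70-3, Hsc70-4, Hsc70-5 and Hsp60A. They were chosen by name, and their spots were taken where the platform annotation gives the spot a single gene. This left 7 genes with 11 spots of their own, of 8295 genes and 11984 spots that are not controls. Hsp22, Hsp23 and Hsp83 had no spot of their own. A clone annotated as stc was not taken for Hsp83, although RefSeq lists stc among the synonyms of Hsp83, because its gene identifier is that of another gene. A further 9 spots are clones listed both for a member and for a second gene. They are shown as shared spots and enter no gene average. Of them, 2 carry Hsp22 together with its neighbour CG4456, which has the synonym Hsp67Bb and so is itself named as a heat shock gene.

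Each of 4 arrays of spotted cDNA clones co-hybridised the RNA of laser wounded embryos with that of unwounded embryos handled alike, both recovered directly after wounding (0 min). Embryos of both conditions were 0 to 1 h old by the labels and carried the actin reporter sGMCA. They were dechorionated by hand and placed under halocarbon oil, and their parents were kept at room temperature. The paper's methods instead give a temperature above room temperature for fly culture and for collecting embryos. They describe several wounds per wounded embryo, and the paper gives this time point as the first minutes after wounding. No heat treatment is described for either condition, so wounding was the only stress set apart between them. The paper's methods also describe desiccation before mounting, and a stress shared by both conditions does not show in their ratio. Embryos recovered at 0 min cannot show a response that takes longer to appear. The arrays are called experiments 3, 4, 7 and 8. Cy3 labelled the wounded embryos' RNA in experiments 3, 7 and 8, whereas in experiment 4 the dyes were swapped. The deposited value of a spot is 1 log2 ratio of both dyes, and the sources used here do not settle which condition or dye is the numerator. A positive ratio therefore cannot be read as more RNA in wounded embryos. Means are given with the sign of experiment 4 turned, as is right for a ratio of dyes, and with it not turned, as is right for a ratio of conditions. Experiments 3, 7 and 8 share their dyes and need no such choice. Ratios carry no level of expression, so whether a transcript was present at all, and whether the embryos expressed the markers of their stage, could not be checked. In whole embryos a different mix of ages and a different amount of RNA per embryo cannot be told apart.

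Heat shock proteins are chaperones, which hold or refold unfolded proteins. Upon heat or other proteotoxic stress, heat shock factor (Hsf) drives their transcription. In *Drosophila* the members fall into 3 classes by background knowledge. Hsp22, Hsp23 and Hsp68 are known mainly as stress-induced genes. Hsp26, Hsp27 and Hsp83 respond to heat too, but are also transcribed in the ovary, which loads their mRNA into the egg. Hsc70-3, Hsc70-4, Hsc70-5 and Hsp60A are cognate genes, made without stress and supplied by the mother. A syncytial embryo lives largely on such maternal mRNA. In the RefSeq gene order Hsp22, Hsp26, Hsp23 and Hsp27 lie in one cluster with Hsp67Bc, CG4456 (Hsp67Bb) and Hsp67Ba.

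Among the stress-induced members only Hsp68, of the Hsp70 family, had a spot of its own. Its clone RE48592 had deposited log2 ratios of -0.02, 0.26, -0.45 and -0.11 in experiments 3, 4, 7 and 8. The arrays with the same dyes thus all lay below 0 and the dye swap lay above it, so the sign was the same on all 4 arrays once experiment 4 was turned. The mean was then -0.21 (SD 0.19, n = 4 arrays, limma adjusted p = 0.998), with a 95% confidence interval from -0.44 to 0.01. Its size was larger than that of 91.2% of genes with experiment 4 turned, and of 59.5% with it not turned. With experiment 4 not turned the mean was -0.08 (SD 0.296, limma adjusted p = 0.997), and over experiments 3, 7 and 8 it was -0.20 (SD 0.228). Experiment 7 had the lowest ratio, below those of all but 6.0% of genes on that array. In experiment 3 the ratio lay above the array median of -0.0293 and above 52.3% of genes. Its sign there thus depends on how the array is centred.

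The clones shared by Hsp22, a mitochondrial small heat shock protein, and CG4456 were close to 0. LD36162 had ratios of -0.08, 0.02, -0.18 and -0.08 in experiments 3, 4, 7 and 8, and LP05734 had -0.02, 0.19, -0.17 and 0.04. Neither clone can be assigned to Hsp22. For Hsp23, a cytosolic small heat shock protein, no value can be given.

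**Figure D1:**
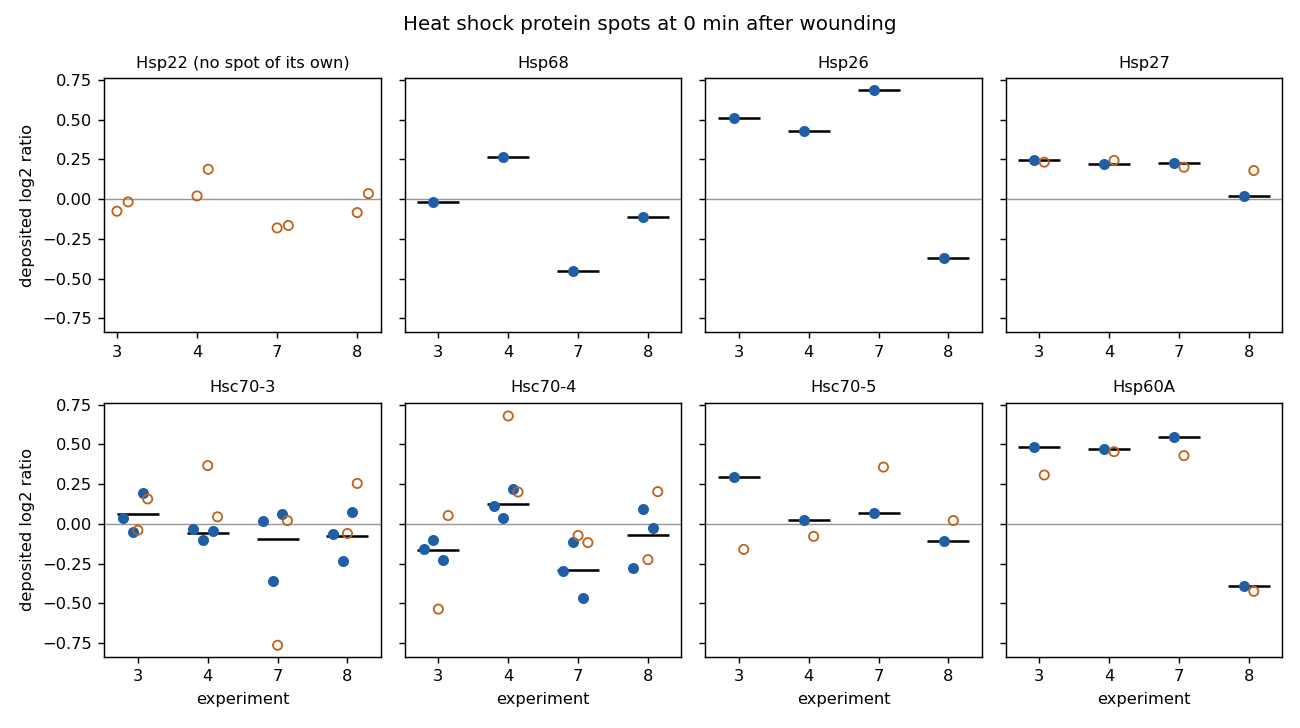
Deposited log2 ratio (y axis) of every spot in experiments 3, 4, 7 and 8 (x axis) for each gene. Filled points are spots of a single gene, open points are clones listed with a second gene, and bars are gene averages over filled points. The filled points of Hsp26 and Hsp60A lie between 0.43 and 0.69 in experiments 3, 4 and 7. In experiment 8 they lie between -0.39 and -0.37, whereas the gene averages of Hsc70-3 stay between -0.09 and 0.06 on every array.

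Of the genes that are both ovarian and heat-inducible, Hsp26 had the widest ratios among all measured members. This small heat shock protein is supplied to the egg by the nurse cells. Its clone LD11379 had ratios of 0.51, 0.43, 0.69 and -0.37 in experiments 3, 4, 7 and 8. Experiments 7 and 8 have the same dyes and opposite signs, so no reading of the dyes gives Hsp26 the same sign on all arrays. In experiment 7 it lay above 99.1% of genes and in experiment 8 above 5.8%. The mean was 0.10 with experiment 4 turned (SD 0.582, n = 4 arrays, limma adjusted p = 0.998) and 0.31 with it not turned (SD 0.47, limma adjusted p = 0.997). Over experiments 3, 7 and 8 it was 0.28 (SD 0.568).

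Hsp27, a small heat shock protein found in nuclei, was the only member above 0 on all 4 arrays as deposited. Its clone GM13686 had ratios of 0.25, 0.22, 0.23 and 0.02 in experiments 3, 4, 7 and 8. These include both dye orientations, and experiment 8 lay closest to 0. The mean with experiment 4 not turned was 0.18 (SD 0.106, n = 4 arrays, limma adjusted p = 0.997), with a 95% confidence interval from 0.00 to 0.36. With experiment 4 turned the mean was 0.07 (SD 0.22, limma adjusted p = 0.998). The shared clone LP10040, listed for Hsp27 and CG3868, had 0.23, 0.24, 0.20 and 0.18, which departs from GM13686 mainly in experiment 8. Hsp83, the cytosolic Hsp90, was not measured by a spot of its own.

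Hsp60A, the chaperonin of the mitochondrial matrix, followed the same order of arrays as Hsp26. Its clone SD06594 had ratios of 0.48, 0.47, 0.55 and -0.39 in experiments 3, 4, 7 and 8. The shared clone AT07434, listed for Hsp60A and Hydr1, had 0.31, 0.45, 0.43 and -0.42. The mean of Hsp60A was 0.04 with experiment 4 turned (SD 0.548, n = 4 arrays, limma adjusted p = 0.998) and 0.28 with it not turned (SD 0.447, limma adjusted p = 0.997). Over experiments 3, 7 and 8 it was 0.21 (SD 0.524). For both Hsp26 and Hsp60A the spread between arrays was larger than the mean under every reading. On the same arrays, the medians of the early zygotic genes stood the other way in experiments 3, 7 and 8. Of these 12 genes 0 lay above 0 in experiment 7, where their median was -0.51, whereas 11 did in experiment 8, where it was 0.43. Of all 8222 genes with 4 values, 4344 lay above 0 in experiment 7 and 3795 in experiment 8. The medians of the early zygotic genes in experiments 3 and 4 were -0.18 and 0.03. These genes, among them Kr, gt and twi, mark the onset of zygotic transcription, and in experiments 3, 7 and 8 their medians, though not every gene, had the signs opposite to those of Hsp26 and Hsp60A. A list of 20 maternal genes had medians of 0.06, -0.11, -0.02 and -0.02 in experiments 3, 4, 7 and 8. The part of either list in the ratios of Hsp26 and Hsp60A was not tested.

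The Hsp70 cognates had smaller ratios. Hsc70-4, the abundant cytosolic Hsc70, had gene averages of -0.16, 0.12, -0.29 and -0.07 over its 3 spots in experiments 3, 4, 7 and 8. These have the same signs as Hsp68 on every array and, like Hsp68, lay on a single side of 0 once experiment 4 was turned. The mean was then -0.16 (SD 0.0946, n = 4 arrays, limma adjusted p = 0.998), with a 95% confidence interval from -0.33 to 0.01. It was -0.10 with experiment 4 not turned (SD 0.175, limma adjusted p = 0.997) and -0.17 over experiments 3, 7 and 8 (SD 0.112). Hsp68 and Hsc70-4 encode related proteins of the Hsp70 family, so their clones may cross-hybridise and are not certain to be independent readings.

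Hsc70-3, the chaperone BiP of the endoplasmic reticulum, was close to 0 on all arrays, with gene averages of 0.06, -0.06, -0.09 and -0.07 in experiments 3, 4, 7 and 8. Its mean was -0.01 with experiment 4 turned (SD 0.0836, n = 4 arrays, limma adjusted p = 0.998) and -0.04 with it not turned (SD 0.0694, limma adjusted p = 0.997). Hsc70-5, the Hsp70 of mitochondria, had 0.30 from clone GM13788 in experiment 3 and 0.02, 0.07 and -0.11 in experiments 4, 7 and 8. Its mean was 0.06 with experiment 4 turned (SD 0.175, n = 4 arrays, limma adjusted p = 0.998) and 0.07 with it not turned (SD 0.169, limma adjusted p = 0.997). The shared clone AT12146, listed for Hsc70-5 and CG9389, had -0.16, -0.08, 0.36 and 0.02, which puts experiment 7 and not experiment 3 highest.

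Spots of the same gene showed how far a single ratio can be trusted. Hsc70-3 and Hsc70-4 each had 3 spots, of which 2 are printings of the same clone, the second from a fresh amplification. For Hsc70-3, clone RH21402 had ratios of -0.05, -0.10, -0.36 and -0.24 in experiments 3, 4, 7 and 8, and its second printing had 0.19, -0.05, 0.06 and 0.07. The third spot of Hsc70-3, RE17418, had 0.04, -0.03, 0.02 and -0.06. For Hsc70-4, clone RH04426 had -0.16, 0.11, -0.29 and -0.28 and its second printing had -0.10, 0.04, -0.11 and 0.09, so in experiment 8 they stood on opposite sides of 0. The third spot of Hsc70-4, RH07164, had -0.23, 0.22, -0.47 and -0.03. The highest and the lowest spot of Hsc70-3 were 0.42 apart in experiment 7, and those of Hsc70-4 0.37 apart in experiment 8. Over 1334 genes with more than 1 spot, the median of this range was 0.153 in experiment 7 and 0.155 in experiment 8. Among clones printed again, the median absolute difference between printings was 0.229, 0.157, 0.22 and 0.291 in experiments 3, 4, 7 and 8, over 369 to 382 clones. The differences of RH21402 were above those of 54.5%, 21.0%, 78.0% and 53.4% of such clones in experiments 3, 4, 7 and 8. Those of RH04426 were above 15.5%, 29.9%, 43.7% and 59.6%. A wider gap was found for LP03836, listed for Hsc70-3 and CG3168, whose printings had -0.76 and 0.02 in experiment 7, a difference above those of 94.0% of such clones. In experiments 3, 4 and 8 the differences of LP03836 were above those of 46.1%, 77.4% and 54.2%. RH06833, listed for Hsc70-4 and Arr1, had -0.54, 0.68, -0.07 and -0.23 in experiments 3, 4, 7 and 8. Its second printing had 0.05, 0.20, -0.12 and 0.20, on the other side of 0 in experiments 3 and 8. The differences of RH06833 were above those of 83.2%, 86.9%, 12.6% and 66.4% of such clones in experiments 3, 4, 7 and 8.

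**Figure D2:**
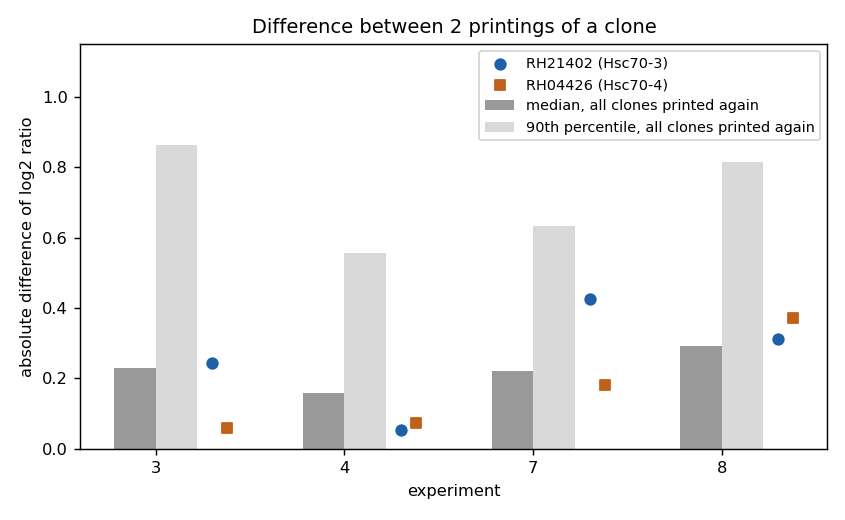
Absolute difference of the deposited log2 ratio (y axis) between the 2 printings of a clone in experiments 3, 4, 7 and 8 (x axis). Bars give the median and the 90th percentile over all clones printed again, and points give RH21402 of Hsc70-3 and RH04426 of Hsc70-4, which stay under the 90th percentile (0.862, 0.555, 0.633 and 0.816) on every array.

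No member passed the study's threshold of a false discovery rate of 5% and 1.5-fold in limma, under either reading of experiment 4, beside 0% of 8240 genes tested. At an unadjusted p under 0.05 there were 0 of 7 members with experiment 4 turned, beside 4.92% of genes. There was 1 of 7, Hsp27, with experiment 4 not turned, beside 2.52% of genes. The same sign on all 4 arrays was found for 2 of 7 members with experiment 4 turned (Hsp68 and Hsc70-4), beside 12.0% of genes. It was found for 1 of 7 (Hsp27) with experiment 4 not turned, beside 10.1% of genes. With so few members these counts do not set the members apart from the background. The median size of the members' means was 0.07 with experiment 4 turned and 0.10 with it not turned, against 0.07 and 0.06 over all genes.

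The intervals give the size of change that stayed within reach. With experiment 4 turned, the 95% confidence interval lay within 1.5-fold for 6 of 7 members, beside 92.3% of genes, and that of Hsp26 reached 1.54-fold. With experiment 4 not turned this held for 5 of 7 members, beside 92.0% of genes, and the intervals of Hsp26 and Hsp60A reached 1.68-fold and 1.62-fold. For Hsp68 the interval reached 1.35-fold with experiment 4 turned, 1.30-fold with it not turned and 1.41-fold over experiments 3, 7 and 8. The narrowest was that of Hsc70-3, at 1.13-fold with experiment 4 turned. These intervals are unadjusted, and they bound nothing for a spot that read no transcript.

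**Figure D3:**
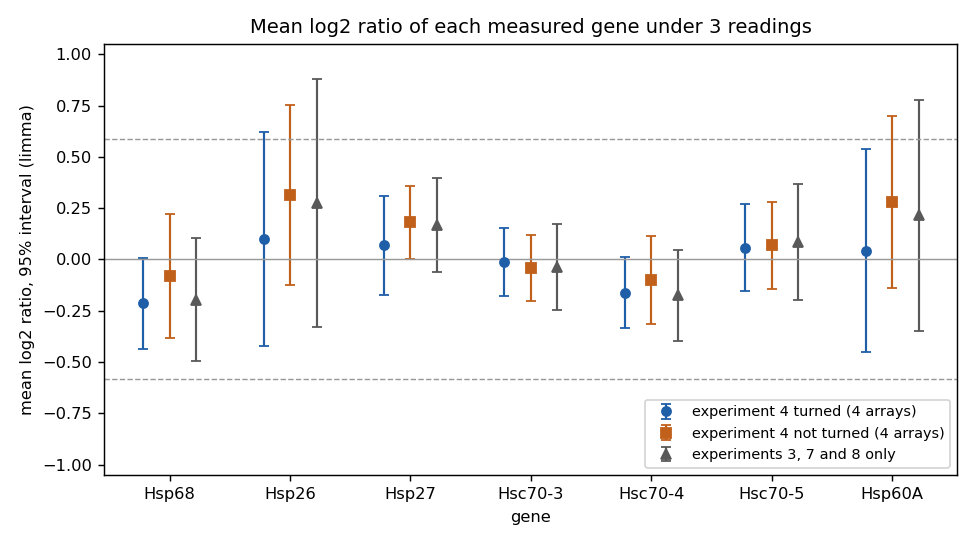
Mean log2 ratio with its 95% confidence interval from limma (y axis) for each measured gene (x axis), with experiment 4 turned, with experiment 4 not turned, and over experiments 3, 7 and 8. Dashed lines mark 1.5-fold. Hsp26 crosses the upper line under all 3 readings and Hsp60A under the last 2, whereas Hsc70-3 and Hsc70-5 stay well inside.

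The comparison of maternally supplied with stress-induced members rested on 6 genes against Hsp68 alone. The mean deposited ratio of the 6 maternal genes was 0.24, 0.20, 0.19 and -0.17 in experiments 3, 4, 7 and 8. The difference from Hsp68 was 0.26, -0.06, 0.65 and -0.05 in experiments 3, 4, 7 and 8. Only experiments 3 and 7 thus separated the classes by more than 0.1. In experiment 7 all 6 maternal genes lay above Hsp68, in experiment 3 all but Hsc70-4 did, and in experiments 4 and 8 Hsp68 lay among them. The mean difference was 0.23 with experiment 4 turned (SD 0.306, n = 4 arrays), 0.20 with it not turned (SD 0.334) and 0.28 over experiments 3, 7 and 8 (SD 0.349). Under each reading it was smaller than the spread between arrays, and without experiment 7 it was 0.09 with experiment 4 turned (SD 0.158). In experiment 7 the widest differences from Hsp68 were those of Hsp26, at 1.14, and of Hsp60A, at 1.00. Averaged with experiment 4 turned, Hsp26, Hsp27, Hsc70-5, Hsp60A and Hsc70-3 differed from Hsp68 by 0.20 to 0.31. The SDs of these differences ran from 0.16 for Hsc70-3 to 0.66 for Hsp26. All of them subtract the same Hsp68 values, so the closeness of their means is partly built in. Hsc70-4 differed from Hsp68 by 0.16 in experiment 7 and by a mean of 0.05 with experiment 4 turned (SD 0.138).

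The maternal class was itself uneven. Hsp26 and Hsp27, which are also heat-inducible, exceeded the mean of the 4 cognate genes by 0.21, 0.19 and 0.40 in experiments 3, 4 and 7 and lay 0.01 below it in experiment 8. With Hsp26 and Hsp27 counted as stress-induced, the cognate genes lay below the stress-induced ones on every array as deposited, by -0.08, -0.17, -0.10 and -0.01 in experiments 3, 4, 7 and 8. The mean difference was then -0.00 with experiment 4 turned (SD 0.119) and -0.09 with it not turned (SD 0.0652). With Hsp26 and Hsp27 left out of both classes, the cognate genes exceeded Hsp68 by 0.19 with experiment 4 turned (SD 0.234) and by 0.13 with it not turned (SD 0.286). The sign of the mean difference thus changed only where Hsp26 and Hsp27 were counted as stress-induced.

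**Figure D4:**
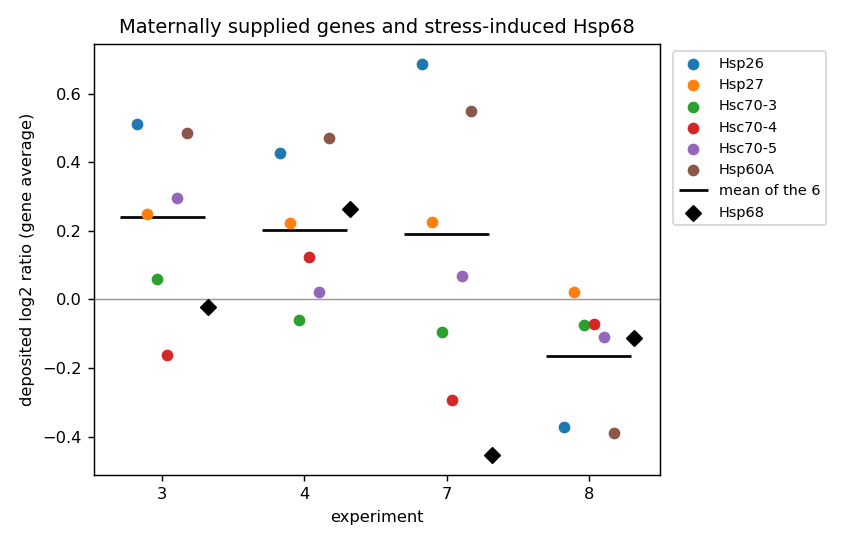
Deposited log2 ratio averaged per gene (y axis) in experiments 3, 4, 7 and 8 (x axis) for the 6 maternally supplied genes (circles, with their mean as a bar) and for Hsp68 (diamonds). Hsp68 lies below the bar by 0.26 in experiment 3 and 0.65 in experiment 7, and above it by 0.06 and 0.05 in experiments 4 and 8.

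Another 31 heat shock and chaperone genes were measured, and 0 passed the threshold in limma under either reading. At an unadjusted p under 0.05 there were 2 of 31 with experiment 4 turned (Hsc70-1 and Hsp60D), beside 4.92% of genes. With it not turned there were 0, beside 2.52% of genes. These counts do not set the 31 genes apart from the background. Their median size was 0.04 with experiment 4 turned and 0.07 with it not turned, against the 0.07 and 0.06 of all genes. The 3 genes other than Hsp60A that encode Hsp60 proteins differed among themselves. Hsp60B had ratios of 0.38, 0.25, 0.43 and -0.33 in experiments 3, 4, 7 and 8 and Hsp60C had 0.31, 0.38, 0.23 and -0.21, in both cases with the signs of Hsp60A. Hsp60D had 0.16, -0.19, 0.25 and 0.18 and a mean of 0.19 with experiment 4 turned (SD 0.0373, n = 4 arrays, limma adjusted p = 0.953), which departs from Hsp60A in experiments 4 and 8. As relatives these clones may share signal.

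For the CCT complex, the chaperonin of the cytosol, the median of its 8 genes had the same order of arrays as Hsp60A. It was 0.27, 0.06, 0.28 and -0.29 in experiments 3, 4, 7 and 8. Single genes departed from this order, and CCT1 and CCT5 were higher in experiment 4 than in experiment 3. All 8 lay above 0 in experiment 3 and below 0 in experiment 8, and 6 lay above 0 in each of experiments 4 and 7. Of 8222 genes, 3535, 4056, 4344 and 3795 lay above 0 in experiments 3, 4, 7 and 8. Across all 8222 genes with a value on each array, 21.3% shared a sign in experiments 3, 4 and 7 and had the other in experiment 8, beside 3 of 7 members (Hsp26, Hsc70-5 and Hsp60A). This pattern was picked after the values had been seen.

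Other genes of the Hsp70 family differed in how far they lay from Hsp68. Hsp70Ab, which is not among the members, had ratios of 0.03, 0.07, -0.48 and -0.20 in experiments 3, 4, 7 and 8. Hsc70-2 had -0.14, 0.08, -0.33 and 0.47. Hsc70-1 had ratios of -0.12, 0.32, -0.33 and -0.04 in experiments 3, 4, 7 and 8, and a mean of -0.20 with experiment 4 turned (SD 0.145, n = 4 arrays, limma adjusted p = 0.998) against -0.04 with it not turned. Hsp110, a more distant relative that acts as a co-chaperone of Hsp70, had 0.15, 0.11, 0.12 and -0.31, with the sign opposite to that of Hsp68 in experiments 3 and 7. Over the 8 measured genes of the family, 4 of them members and Hsp68 among them, the median was 0.01, 0.09, -0.31 and -0.09. Hsf, the transcription factor of the heat shock response, had ratios of -0.04, 0.49, 0.04 and -0.03 from its single clone. Only experiment 4 departed from 0, and the mean of Hsf was -0.13 with experiment 4 turned (SD 0.243, n = 4 arrays, limma adjusted p = 0.998) and 0.12 with it not turned (SD 0.252, limma adjusted p = 0.997). Over experiments 3, 7 and 8 it was -0.01 (SD 0.0452).

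**Figure D5:**
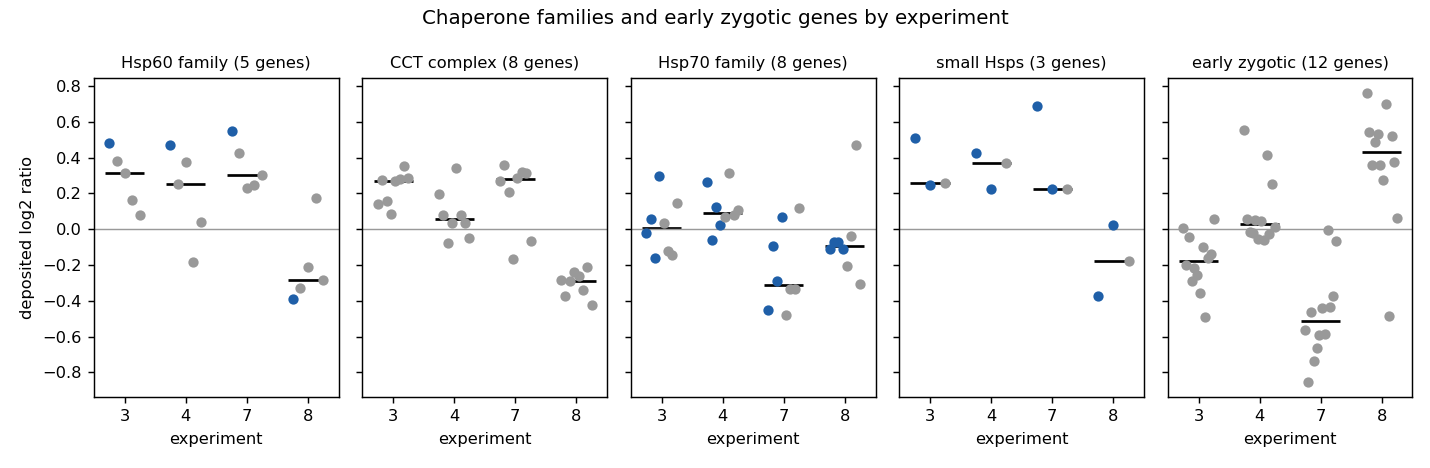
Deposited log2 ratio of each gene (y axis) in experiments 3, 4, 7 and 8 (x axis) for Hsp60 family genes with the co-chaperonin gene CG11267, the CCT complex, the Hsp70 family, small heat shock proteins and early zygotic genes. Blue points are members, grey points other genes and bars medians. The medians of the Hsp60 family and the CCT complex are 0.30 and 0.28 in experiment 7 and both -0.29 in experiment 8, against -0.51 and 0.43 for early zygotic genes.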

How the data were processed

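The authors scanned the arrays, took log2 ratios of the spot intensities, normalized them by loess within each array in limma and deposited 1 log2 ratio per spot and array. By their methods, dim or flagged spots were removed first. No intensities were used. By the labels, 30 ug of total RNA entered each labelling. Of 12144 spots, 160 plant and genomic DNA controls were left out, and 98.4% of the rest had a value on all 4 arrays. Of 128 plant spots, 36 to 55 per array kept a value, so a value does not by itself show a fly transcript. Array medians lay between -0.0293 and 0.0056, and the number of arrays limits the precision. Correlations between arrays over spots ran from -0.269 (experiments 7 and 8) to 0.298 (3 and 7).

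The platform annotation gave 9917 spots a single gene, of which 9746 were renamed through RefSeq Release 6. It gave 625 spots several genes and 1442 none. Spots with at least 3 values were averaged per gene and array and fitted without a dye term by lmFit and eBayes of limma 3.58.1 (R 4.3.3), with two-sided p-values adjusted by Benjamini-Hochberg over 8240 genes. The methods call the replicates independent without naming separate embryo collections, so the p-values reflect only how far these samples spread, which may be technical. The script was tested on simulated data. Members, classes and lists were chosen with earlier results of these data known. All members are named. Of the other chaperone genes, those named by rule have the 2 largest mean sizes under each reading, and Hsf was added. CCT genes, early zygotic genes and relatives were described after their values were seen. Alternatives were the reading of experiment 4, a dye term, filters, centring, scaling, the summary over spots, the classes, shared clones and leaving out arrays.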

Additional observations from a re-analysis of the deposited data

Results flagged for a closer look

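Among 7 members, the difference between maternal genes and Hsp68 and 5 other chaperone genes, each under both readings of experiment 4, 4 of 26 searches found 1 array that stood apart by Dixon's test, which divides the distance to the next value by the range, where chance gives about 1 in 20. The searches share arrays and values. As deposited, Hsp60A had -0.39 in experiment 8 and Hsp27 had 0.023 in experiment 8, far below their other 3 ratios, and neither stood apart with experiment 4 turned. Hsf had 0.49 in experiment 4, far from the others under both readings.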

How the results depend on the processing

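No member and no gene was called under any alternative run. Of all spots, 2 were called when all 4 values were required (RH64142, with no gene listed here, and GH12144 of Tmtc2) and 1 with the arrays scaled to the same SD (RH64142). The cause was not tested. Leaving out an array left 1713 to 2462 genes with the same sign on all remaining arrays, against 989, and 2 or 3 members. The same sign is easier to reach by chance over fewer arrays, so these counts are not like for like. With experiment 4 not turned, 1 member (Hsp27) had the same sign on all 4 arrays. With experiment 4 turned and arrays centred on their medians 1 did (Hsc70-4). Hsp68 was lost there, as its ratio in experiment 3 lay above the array median. With experiment 4 not turned and experiment 3, 7 or 8 left out (chosen after seeing the data), 1269, 1869 and 2582 genes had the same sign. The same held for 2, 1 and 4 members. The difference between maternal and stress-induced genes was 0.23 and moved by less than the SD over arrays (0.306) in every setting. That SD is larger than the difference, so this bound does not show a stable one. The difference ran from -0.0035 (Hsp26 and Hsp27 counted as stress-induced) to 0.32 (without experiment 8). It was 0.048 with experiment 4 not turned and experiment 7 left out.
Of 105 alternative means of members, 16 had another sign than the one reported, for causes that were not tested. Hsc70-4 kept its sign in all 15. With a dye term the means of Hsp26, Hsp27, Hsc70-3 and Hsp60A were -0.076, -0.029, 0.012 and -0.13. That of Hsc70-3 was 0.0002 with centred arrays and 0.010 with the median over spots, and that of Hsp60A -0.011 with scaled arrays. Leaving out each array in turn gave -0.10 to 0.28 for Hsp26, -0.036 to 0.015 for Hsc70-3, -0.022 to 0.11 for Hsc70-5 and -0.13 to 0.21 for Hsp60A. It gave 0.0085 (without experiment 3) to 0.17 (without experiment 4) for Hsp27, against 0.07 (0.016 without experiment 7), and -0.28 (without experiment 3) to -0.13 (without experiment 7) for Hsp68, against -0.21. With experiment 4 not turned, Hsp68 had 0.043 without experiment 7 and Hsc70-5 had -0.0066 without experiment 3. Each deposited value is already a ratio of both samples of 1 array, so the fit of these ratios keeps the pairing within an array. Ratios without intensities limit what can be said of weak spots, and 4 arrays, of which 1 has swapped dyes, limit every mean.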
